A study of Mus musculus with 7 samples.

Results

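The genes described here are the 10 mouse genes of the WDR11 complex and of vesicle capture at the trans-Golgi network (TGN). They are Wdr11, Fam91a1, 5730455P16Rik, Tbc1d23, Golga1, Golga4, Gcc1, Gcc2, Arl1 and Arfrp1. They were taken by name from a table of 34592 rows of read counts. Of the 10 names, 9 are row names of the table. Fam91a1 is present under its older name D15Ertd621e, to which RefSeq lists Fam91a1 as a synonym. All 10 genes passed the filter on low counts, which kept 17389 genes for the test.

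The counts come from RNA sequencing of 7 mouse tumors of Group 3 medulloblastoma (G3 MB), a MYC-driven class of cerebellar tumor. All 7 tumors grew from the tumorsphere line # 19568, which started as cerebellar granule neuronal progenitors transduced with an MSCV retrovirus carrying Myc-IRES-GFP. The study gives the mice that supplied the progenitors of its G3 MB model as Trp53-/-; Cdkn2c-/-. Before implantation in the cortex of host mice of the strain CD1-nu/nu, which lack T cells, the tumorspheres were infected with a lentivirus and were not sorted. The 4 tumors of the group WDR11OE received pCDH-EF1-WDR11-T2A-copGFP, which expresses human WDR11 from the EF1 promoter. The 3 control tumors received pCDH-EF1-MCS-T2A-copGFP, the empty vector, according to the protocol, although their treatment label reads none. Chunks of tumor were taken when the mice became moribund, so host brain cells may be present. All tumors came from a single line, and the p-values below measure the spread between these 7 tumors.

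The WDR11 protein forms a complex with FAM91A1 and C17orf75, whose mouse gene is 5730455P16Rik. The complex takes part in the capture of vesicles that travel from endosomes back to the TGN, the sorting station where cargo leaves the Golgi. Vesicles are caught there by golgins, long coiled-coil proteins that stand on the membrane with a GRIP domain at the end that holds on to it. The small GTPase ARL1 holds golgin-97 (Golga1) and golgin-245 (Golga4) on the membrane, and the GTPase ARFRP1 acts before ARL1 in the same chain. TBC1D23 links these golgins with the vesicles.

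Human and mouse WDR11 have separate rows in the table. The human row, named hWDR11, held 73, 92 and 102 counts in control replicates 1, 2 and 3. In the 4 tumors labelled WDR11OE, it held 185, 169, 99 and 57 counts in replicates 1 to 4. How reads were divided between the human and mouse rows is not given in the sources used here. By the protocol, the controls received no human WDR11, yet the row held counts in each of them. Where these reads came from was not tested. Scaled to counts per 1000000 (CPM), the human row lay at 2.03, 2.19 and 3.13 in the controls and at 4.38, 2.11, 3.05 and 0.624 in the tumors labelled WDR11OE. The groups overlapped, and the tumor with the lowest value of all was a tumor labelled WDR11OE.

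The mean of the human row was 2.45 ± 0.592 CPM in the controls (SD, n = 3) and 2.54 ± 1.58 CPM in the tumors labelled WDR11OE (SD, n = 4). The log2 fold change was 0.05 with a standard error of 0.58 in the edgeR quasi-likelihood test, and its 95% interval ran from -1.30 to 1.40 (adjusted p = 0.961). The interval allows a fold between 0.405 and 2.63. A two-sided exact permutation test over the 35 assignments of the 7 tumors gave p = 0.829, where the smallest possible p is 0.0286. The direction turned in 7 of the 16 alternatives that the human row could enter, and in none of them did the row pass. The human row did not separate the groups in these counts, and the group names are used below as labels.

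Human counts were a small share of human and mouse WDR11 counts together in every tumor. The share was 3.33%, 3.62% and 5.01% in control replicates 1, 2 and 3. In the tumors labelled WDR11OE, it was 6.15% in replicate 1 (exact binomial 95% interval 5.32% to 7.07%), 3.34% in replicate 2, 4.44% in replicate 3 and 0.898% in replicate 4 (0.681% to 1.16%). These intervals cover counting error only. The control shares lay between those of replicates 1 and 4 of the tumors labelled WDR11OE.

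**Figure D1:**
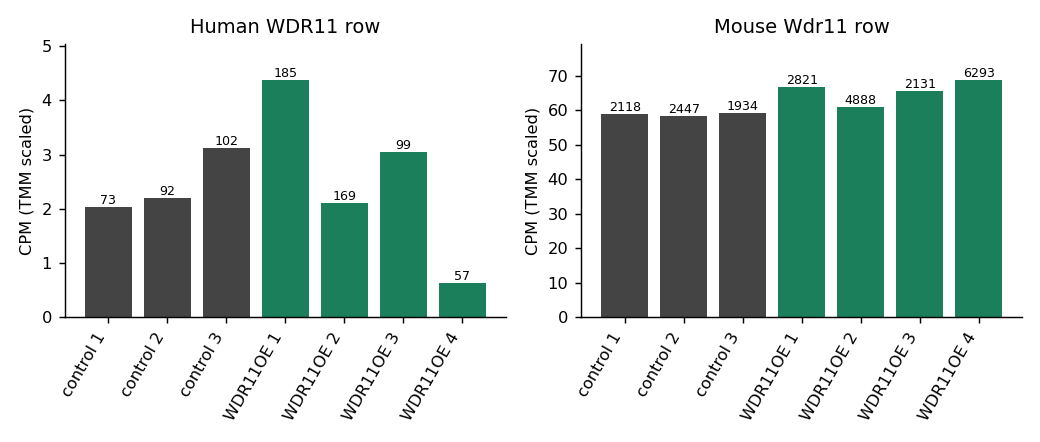
Counts per 1000000 (CPM, TMM-scaled) of the human row hWDR11 and of mouse Wdr11 in each of the 3 control tumors and the 4 tumors labelled WDR11OE. Each bar is 1 tumor, from 0, with its raw count above it, and the panels have different scales. The human row overlaps between the groups (0.624 to 4.38 CPM), while mouse Wdr11 lies at 58.3 to 59.3 CPM in the controls and at 61.0 to 68.9 CPM in the tumors labelled WDR11OE.

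Total counts per tumor lay between 32116095 and 87141305, and every one of the 10 genes had at least 15.3 CPM in every tumor. Among all genes tested, 33.9% passed the test at an adjusted p under 0.05, the threshold for a call throughout. Replicates 1 and 2 of WDR11OE carry a shared number in their titles and correlated at 0.993 in log2 CPM over genes, the highest value within the group. Whether they come from the same animal is not given, and the tests treat them as separate tumors. With these replicates summed, 3716 of 17132 genes were called, against 5894 of 17389 in the main test. Summed skeletal muscle markers were at 1.38 to 1.97 CPM in the controls and at 34.4 to 106 CPM in the tumors labelled WDR11OE, with 6 of 6 markers higher. Summed neuron markers ranged from 73.7 to 449 CPM in the controls and from 12.9 to 691 CPM in the tumors labelled WDR11OE, and 0 of 9 passed the test. Of the granule progenitor and G3 MB markers, Atoh1 had 0 counts in all 7 tumors, Barhl1 had 0 in 6 of them, and Myc lay at 812 to 1109 CPM in the controls and at 278 to 431 CPM in the tumors labelled WDR11OE. Of the 7 of these 9 markers that were tested, 0 were called higher and 1 lower, with 1 higher and 2 lower at an unadjusted p under 0.05. Summed endothelial markers did not overlap either, at 112 to 142 CPM in the controls and 86.4 to 95.8 CPM in the tumors labelled WDR11OE, with 0 of 6 called higher and 2 lower. Control libraries and WDR11OE libraries bear unrelated runs of numbers, so the condition and a batch cannot be told apart. In bulk tumor RNA, fewer cells of a type and less RNA per cell cannot be told apart either.

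Of the 10 genes, 5 were higher in the tumors labelled WDR11OE and 0 were lower by edgeR's adjusted p. The 5 were Fam91a1 of the WDR11 complex, the golgins Golga1 and Gcc2, the vesicle linker Tbc1d23 and the GTPase Arl1. Across all genes tested, 18.1% were called higher and 15.8% lower. At an unadjusted p under 0.05, 6 of the 10 were higher and 0 were lower. Over the 17389 genes tested, 4160 were higher and 3463 lower at that threshold. DESeq2 and limma-voom each also called 5 of the 10 higher and 0 lower. In either direction, they called 6353 of 18830 and 5760 of 17389 genes. All 10 log2 fold changes were above 0, as were those of 9708 of the 17389 genes tested. The median of the 10 was 0.27, where the median over all genes tested was 0.08. In 6 of the 10 the groups did not overlap, with the tumors labelled WDR11OE on the higher side, as in 23.5% of all genes, and in 0 they stood apart on the lower side, as in 19.1%. No gene of the 10 reached a 2-fold difference with a call, as 3.53% of all genes did on the higher side and 3.95% on the lower side.

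Fold changes went with the base composition of the transcripts. Across protein-coding genes, the median log2 fold change fell from 0.39 in the quintile of genes lowest in GC content (30.3% to 44.2% of exon bases) to -0.22 in the highest quintile (55.8% to 72.9%). The 5 genes called higher were among the 7 of the 10 with a GC content under 48%. Of the 3 genes with a GC content of 50% or more, Golga4, Gcc1 and Arfrp1, 0 were called. When the GC trend was taken out of each library before the test, 1 of the 10 was called higher, Golga1, and 0 were called lower, against 10.5% and 14.1% of all genes. The log2 fold change was then above 0 in 7 of the 10, and in 9189 of 17186 genes. The median log2 fold change of the 10 was then 0.12, beside 0.05 for all genes. Each gene is given below with both values.

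**Figure D2:**
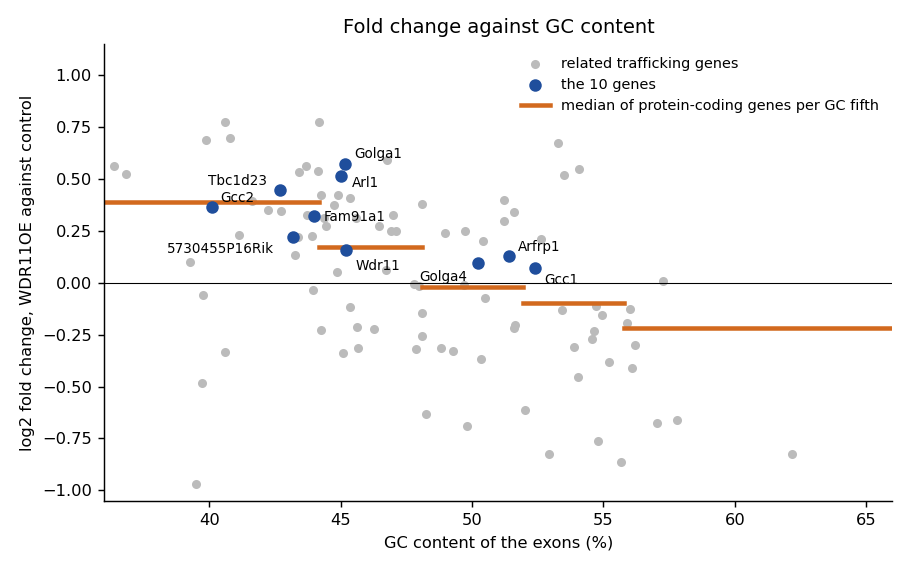
Log2 fold change of the tumors labelled WDR11OE against the controls, plotted against the GC content of the annotated exons, for the 10 genes (blue) and for 88 related trafficking genes with an annotated exon sequence (grey). Bars mark the median of all protein-coding genes within each quintile of GC content, which falls from 0.39 to -0.22, and the outer bars run past the plotted range.

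Mouse Wdr11 encodes the WD-repeat protein that gives the complex its name. It is annotated at chr7:136735377-136779252 on the plus strand of NCBIM37 (mm9), with 8 transcripts whose merged exons span 10372 bases and have a GC content of 45.2%. Wdr11 held 2118, 2447 and 1934 counts in the controls and 2821, 4888, 2131 and 6293 counts in the tumors labelled WDR11OE. Scaled, it lay at 58.9, 58.3 and 59.3 CPM in the controls and at 66.8, 61.0, 65.7 and 68.9 CPM in the tumors labelled WDR11OE. Every tumor labelled WDR11OE was above every control, and the controls lay within a narrow band.

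The mean of Wdr11 was 58.8 ± 0.464 CPM in the controls (SD, n = 3) and 65.6 ± 3.36 CPM in the tumors labelled WDR11OE (SD, n = 4). The log2 fold change was 0.16 with a standard error of 0.06 and a 95% interval from 0.01 to 0.30, or 1.12-fold, and it did not pass the test over all genes (adjusted p = 0.0910). The test was passed with upper quartile scaling at 0.19 (adjusted p = 0.0454) and with the trend of fold change with exon length removed at 0.32 (adjusted p = 0.0363). Removal of the GC trend left a log2 fold change of -0.02 (95% interval -0.15 to 0.11, adjusted p = 0.824). The interval of the first test ran from 1.01-fold to 1.23-fold. Human and mouse counts added together lay at 60.5 to 62.4 CPM in the controls and at 63.1 to 71.2 CPM in the tumors labelled WDR11OE.

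Fam91a1, the partner that binds TBC1D23, had the highest CPM of the 10 genes in every tumor. It lies at chr15:58247023-58289356 on the plus strand (5621 exon bases, GC content 44.0%). Its values were 175, 164 and 176 CPM in the controls and 221, 226, 214 and 198 CPM in the tumors labelled WDR11OE. The groups did not overlap, and replicate 4 of the tumors labelled WDR11OE was nearest to the controls. The means were 172 ± 6.73 CPM (SD, n = 3) and 214 ± 12.1 CPM (SD, n = 4), which gave a log2 fold change of 0.32 with a standard error of 0.07, or 1.25-fold, by edgeR (adjusted p = 0.0127). Once the GC trend was removed, the log2 fold change was 0.10 (adjusted p = 0.493). Over the 18 alternatives, the gene passed in 11, and it did not pass with the GC trend removed, with median-of-ratios scaling, without a filter, without control replicate 2, without replicate 1 or 2 of WDR11OE, or with those replicates summed.

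5730455P16Rik, the mouse counterpart of C17orf75, is the remaining subunit of the complex. It lies at chr11:80173995-80191536 on the minus strand (4839 exon bases, GC content 43.2%). It was at 39.9, 27.2 and 36.7 CPM in the controls and at 38.9, 37.1, 39.2 and 46.0 CPM in the tumors labelled WDR11OE. The groups overlapped, since control replicate 1 was above 3 of the 4 tumors labelled WDR11OE. The log2 fold change was 0.22 with a 95% interval from -0.11 to 0.56 (edgeR adjusted p = 0.283), and -0.04 with the GC trend removed (adjusted p = 0.847). Of the 3 subunits of the complex, 1 was called, Fam91a1, beside 33.9% of all genes called in either direction, and 0 were called once the GC trend was removed.

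Tbc1d23 encodes the adaptor that connects the golgins with incoming vesicles. It lies at chr16:57168979-57231579 on the minus strand (3648 exon bases, GC content 42.7%). Its values were 27.7, 27.9 and 25.6 CPM in the controls and 37.2, 33.5, 33.8 and 42.9 CPM in the tumors labelled WDR11OE. The groups did not overlap, and the lowest tumor labelled WDR11OE was well above the highest control. The means were 27.1 ± 1.25 CPM (SD, n = 3) and 36.8 ± 4.37 CPM (SD, n = 4), which gave a log2 fold change of 0.44 with a standard error of 0.10, or 1.36-fold, by edgeR (adjusted p = 0.0160). After removal of the GC trend, it was 0.16 with a 95% interval from -0.05 to 0.36 (adjusted p = 0.242). Without control replicate 3, the log2 fold change was 0.40 and the gene did not pass (adjusted p = 0.0559). A non-coding gene on the opposite strand, Gm16892, shares 208 of its exon bases, and was under 0.22 CPM in every tumor.

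Among the golgins, Golga1, which encodes golgin-97, had the largest log2 fold change of the 10 genes in the main test. Arl1 exceeded it without control replicate 3 (0.58 against 0.49) and without WDR11OE replicate 4 (0.56 against 0.53). It lies at chr2:38871781-38921061 on the minus strand (5392 exon bases, GC content 45.2%). It was at 37.9, 33.4 and 29.9 CPM in the controls and at 50.7, 45.7, 50.3 and 54.1 CPM in the tumors labelled WDR11OE. Every tumor labelled WDR11OE was above every control. The means were 33.7 ± 4.05 CPM (SD, n = 3) and 50.2 ± 3.44 CPM (SD, n = 4), which gave a log2 fold change of 0.57 with a standard error of 0.10 and a 95% interval from 0.34 to 0.81, or 1.49-fold, by edgeR (adjusted p = 0.00508). It was 0.39 with the GC trend removed, with an interval from 0.19 to 0.60 (adjusted p = 0.0177). The gene passed in all 18 alternatives, with log2 fold changes between 0.39 and 0.66.

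Gcc2 encodes GCC185, a golgin involved in the return of mannose 6-phosphate receptors to the TGN. It lies at chr10:57718245-57768347 on the plus strand (9630 exon bases) and has the lowest GC content of the 10 genes, 40.1%. It was at 53.9, 46.8 and 49.0 CPM in the controls and at 59.6, 58.9, 64.7 and 73.8 CPM in the tumors labelled WDR11OE. The groups did not overlap. The means were 49.9 ± 3.65 CPM (SD, n = 3) and 64.3 ± 6.88 CPM (SD, n = 4), which gave a log2 fold change of 0.36 with a standard error of 0.10, or 1.29-fold, by edgeR (adjusted p = 0.0274). In the fit without the GC trend, it was -0.04 with an interval from -0.21 to 0.13 (adjusted p = 0.729). In that fit Golga1 passed and Gcc2 did not, and the difference between the genes was not tested. Of 18 alternatives, Gcc2 passed in 13, and it did not pass with scaling by library size only, or without control replicate 2, control replicate 3 or WDR11OE replicate 3.

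The other golgins did not pass. Golga4, which encodes golgin-245 (chr9:118415393-118491640, plus strand, GC content 50.2%), was at 110, 112 and 106 CPM in the controls and at 116, 111, 113 and 127 CPM in the tumors labelled WDR11OE. Its groups overlapped, with a log2 fold change of 0.10 and a 95% interval from -0.06 to 0.25 (edgeR adjusted p = 0.320). The value was also 0.10 without the GC trend, with an interval from -0.05 to 0.24 (adjusted p = 0.288). Gcc1, which encodes GCC88 (chr6:28366091-28378390, minus strand, GC content 52.4%), was at 15.3, 16.1 and 17.3 CPM in the controls and at 17.2, 17.7, 17.6 and 15.8 CPM in the tumors labelled WDR11OE. Its log2 fold change was 0.07 with an interval from -0.16 to 0.30 (edgeR adjusted p = 0.628), and 0.14 without the GC trend (adjusted p = 0.374). A gene on the opposite strand, Fscn3, shares 58 of its exon bases and was under 0.22 CPM in every tumor.

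Of the GTPase genes, Arl1 passed and Arfrp1 did not. Arl1, whose protein holds golgin-97 and golgin-245 on the TGN membrane, lies at chr10:88193603-88206839 on the plus strand (2369 exon bases, GC content 45.0%). It was at 78.9, 74.3 and 88.2 CPM in the controls and at 119, 123, 112 and 104 CPM in the tumors labelled WDR11OE. The groups did not overlap. The means were 80.5 ± 7.09 CPM (SD, n = 3) and 115 ± 8.40 CPM (SD, n = 4), which gave a log2 fold change of 0.51 with a standard error of 0.09 and an interval from 0.31 to 0.72, or 1.43-fold, by edgeR (adjusted p = 0.00463). With the GC trend removed, it was 0.33 with an interval from 0.08 to 0.59 (adjusted p = 0.0637), and this was the only alternative of 18 in which Arl1 did not pass. The opposite-strand gene Gm4925 shares 162 exon bases with Arl1 and was at 0.265 CPM in the controls and 0.662 CPM in the tumors labelled WDR11OE.

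Arfrp1, whose protein acts before ARL1, lies at chr2:181092395-181100109 on the minus strand (4320 exon bases, GC content 51.4%). It was at 23.6, 24.3 and 22.2 CPM in the controls and at 25.5, 24.2, 23.8 and 28.6 CPM in the tumors labelled WDR11OE. The groups overlapped, with a log2 fold change of 0.13 and an interval from -0.09 to 0.35 (edgeR adjusted p = 0.344), and 0.17 without the GC trend (adjusted p = 0.210). Zgpat, on the opposite strand, shares 449 of the exon bases of Arfrp1, or 10.4%, and was itself higher, at 26.9 ± 2.66 CPM (SD, n = 3) against 34.5 ± 2.49 CPM (SD, n = 4), which gave a log2 fold change of 0.36 (edgeR adjusted p = 0.0268). The sources disagree on whether the libraries kept strand, so reads in the shared bases of such pairs may count for either gene.

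**Figure D3:**
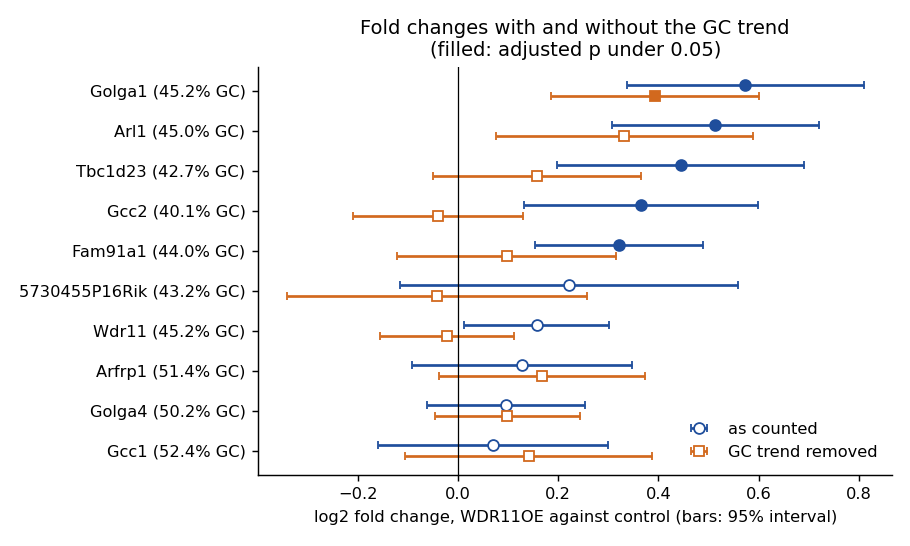
Log2 fold changes of the 10 genes, tumors labelled WDR11OE against controls, with 95% intervals, from the edgeR fit (n = 4 and 3) and from the fit with the GC trend removed. Filled symbols mark an adjusted p under 0.05, and the GC content of each gene's exons stands beside its name. Fam91a1, Golga1, Gcc2, Tbc1d23 and Arl1 are filled in the first fit, and Golga1 alone in the second.

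Among the tumors labelled WDR11OE, replicates 2 and 4 held nearly all the extremes of the 10 genes. Replicate 4 had the highest value of 7 genes and the lowest of 3, namely Fam91a1, Gcc1 and Arl1. Replicate 2 had the highest value of those 3 and the lowest of 6 others. How often these replicates held the extremes among all genes was not counted, so the split may not be particular to the 10 genes. Replicates 2 and 4 also had the lowest and the highest TMM scaling factor of the group, 0.939 and 1.05. Summed neuron markers were at 691 CPM in replicate 4 and at 28.9 CPM in replicate 2. Without replicate 4 of WDR11OE, 5 of the 10 genes were called higher, and 5854 of 16953 genes were called in either direction. The human row then had a log2 fold change of 0.37. Replicate 4 had the lowest summed muscle markers of its group. The part of muscle and endothelial RNA in the members' values was not tested.

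Within each tumor, the ratio of a gene to Wdr11 per exon length does not depend on the scaling between tumors. Of the 9 ratios, 3 were higher in every tumor labelled WDR11OE than in every control, and 0 were lower, where 15.2% and 25.1% of all genes did so. The ratio of Golga1 to Wdr11 was 0.969 to 1.24 in the controls and 1.44 to 1.51 in the tumors labelled WDR11OE. That of Tbc1d23 was 1.23 to 1.36 in the controls and 1.46 to 1.77 in the tumors labelled WDR11OE. That of Arl1 was 5.57 to 6.52 in the controls and 6.63 to 8.86 in the tumors labelled WDR11OE. The ratio within the complex, Fam91a1 to Wdr11, overlapped between the groups, at 5.18 to 5.50 in the controls and 5.30 to 6.83 in the tumors labelled WDR11OE. So did those of 5730455P16Rik, Gcc2, Golga4, Gcc1 and Arfrp1.

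Levels between genes were compared as CPM per kilobase of merged exons, which depends on the annotated exons of each gene. In the controls, Arl1 was highest at 34.0 ± 2.99 and Fam91a1 next at 30.5 ± 1.20 CPM per kilobase (SD, n = 3). Their ranges did not overlap, by a narrow margin of 31.4 against 31.2. Golga4 followed at 14.3 ± 0.407, apart from the genes above and below it. Tbc1d23 (7.42 ± 0.342), 5730455P16Rik (7.14 ± 1.37), Golga1 (6.26 ± 0.751), Wdr11 (5.67 ± 0.0447), Arfrp1 (5.41 ± 0.245) and Gcc2 (5.18 ± 0.379) formed a run in which all neighbours but Wdr11 and Arfrp1 overlapped. Wdr11 and Arfrp1 were next to each other with no overlap, at 5.63 to 5.71 and at 5.14 to 5.61. Gcc1 was lowest, at 3.07 ± 0.196 CPM per kilobase, below every other gene in every control.

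In the tumors labelled WDR11OE, the first 4 genes kept their order, with Arl1 at 48.5 ± 3.54, Fam91a1 at 38.2 ± 2.14, Golga4 at 15.3 ± 0.917 and Tbc1d23 at 10.1 ± 1.20 CPM per kilobase (SD, n = 4). Golga1 (9.31 ± 0.639) stood above 5730455P16Rik (8.33 ± 0.811), and Gcc2 (6.67 ± 0.715) above Wdr11 (6.32 ± 0.324) and Arfrp1 (5.91 ± 0.512). The genes of each of these neighbouring pairs overlapped in range. Compared within each tumor labelled WDR11OE, Golga1 was always above 5730455P16Rik and Wdr11 always above Arfrp1. Gcc2 was below Wdr11 in replicate 1 (6.19 against 6.44) and above it in the other replicates. Gcc1 remained lowest at 3.23 ± 0.171. Per exon length, Fam91a1 was above Wdr11 at least 5.18-fold in every tumor. This figure rests on exons merged over 8 transcripts for Wdr11 (10372 bases) and 1 for Fam91a1 (5621 bases). In read counts, the ratio ran from 2.81 in control replicate 2 to 3.70 in WDR11OE replicate 2.

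**Figure D4:**
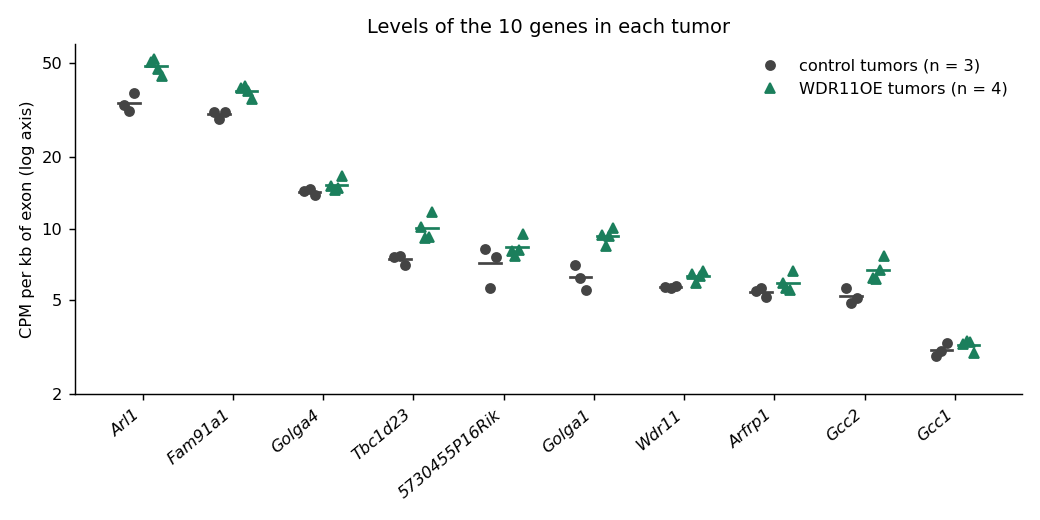
Levels of the 10 genes in each tumor as CPM per kilobase of merged exons, on a log axis, for the 3 controls and the 4 tumors labelled WDR11OE. Points are tumors. Arl1 and Fam91a1 lie highest, Golga4 lies between, and Gcc1 lies lowest in both groups.

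The genes with the pattern most like that of Wdr11 were found as those with the smallest root mean square difference in centred log2 CPM over the 7 tumors, among 14806 genes. They were Zcchc6 (0.0245), Aldh3a2 (0.0247), Cstf3 (0.0279), Map4k3 (0.0286) and Ttc5 (0.0377). Of the other 9 genes, Golga4 was the most like Wdr11 by this measure, at rank 33 with 0.0523, and Arfrp1 came next at rank 131 with 0.0704. The partner Fam91a1 was at rank 1327 with 0.130. Arl1 and Golga1 were the least like it, at ranks 4630 (0.219) and 5001 (0.230). The measure is small for any gene that, like Wdr11, varied little between the tumors.

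The promoters of the genes called higher are shown, with that of Wdr11, because these genes were called in the same direction in the main test. Wdr11 itself was not called, and without the GC trend Golga1 alone was. Each line is the 100 bases before the start of a RefSeq transcript in GRCm38.p6, a later build than that of the counts, 5′ to 3′ on the gene's strand. RefSeq windows were at hand for 8 of the 10 genes, and Fam91a1 and Golga4 had no entry. Tbc1d23 had a second window further into the gene, without a match, which is not printed. Capitals mark matches on either strand to 4 short motifs, which are the centre of the NRF1 motif, spelled GCATGC, the CCAAT box, the GC box, which reads GGGCGG, and the E-box, which here means CACGTG. The motifs were chosen after the values were seen, and no marked stretch matched more than 1 of them.
Wdr11, chr7:129591763-129591862, plus strand: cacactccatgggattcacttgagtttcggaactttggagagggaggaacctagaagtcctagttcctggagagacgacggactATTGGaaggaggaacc
Golga1, chr2:39065542-39065641, minus strand: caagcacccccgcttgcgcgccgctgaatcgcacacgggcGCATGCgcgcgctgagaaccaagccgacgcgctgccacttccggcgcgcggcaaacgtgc
Arl1, chr10:88731314-88731413, plus strand: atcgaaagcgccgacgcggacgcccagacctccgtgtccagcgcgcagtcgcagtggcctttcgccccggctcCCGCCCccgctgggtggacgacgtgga
Tbc1d23, chr16:57231467-57231566, minus strand: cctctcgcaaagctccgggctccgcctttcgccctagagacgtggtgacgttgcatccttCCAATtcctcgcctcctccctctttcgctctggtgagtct
Gcc2, chr10:58255426-58255525, plus strand: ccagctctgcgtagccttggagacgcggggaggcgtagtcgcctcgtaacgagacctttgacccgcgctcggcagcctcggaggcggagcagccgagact

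The 5 windows had no motif in common. GCATGC was in the window of Golga1 and in 3.35% of the 32851 RefSeq promoter windows of the same length. CCAAT was in the windows of Wdr11, as its reverse complement, and of Tbc1d23, and in 18.9% of all windows. GGGCGG was in the window of Arl1, as its reverse complement, and also in those of 5730455P16Rik, Arfrp1 and Gcc1, and in 24.7% of all windows. CACGTG was in 0 of the 9 windows of these genes and in 3.17% of all. The window of Wdr11 had a GC content of 51%, that of Tbc1d23 60%, and those of Gcc2, Golga1 and Arl1 68%, 72% and 73%, beside a median of 55% over all windows. These matches describe the printed letters only.

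The other genes of the pathway were read from 9 lists of trafficking genes around the TGN, with 90 genes in the table and 89 tested. Of these, 30 were higher and 24 were lower in the tumors labelled WDR11OE, with a median log2 fold change of 0.01. None reached 2-fold with a call in the main test, although Ap1s3, described below, did in some alternatives. Without the GC trend, 10 were higher and 23 lower of 88 tested. The shares over all genes were 18.1% higher and 15.8% lower in the main test, and 10.5% and 14.1% without the GC trend. The difference between these lists and the 10 genes was not tested. Several list counts changed when single tumors were left out, as given with each list.

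The list of factors of the ARL1 and ARFRP1 pathway gave 5 genes higher and 4 lower of 16. When 1 tumor was left out, 2 to 5 were higher, with 2 or 3 in every case except without WDR11OE replicate 4, and 1 to 3 were lower, with 1 without control replicate 1 or WDR11OE replicate 1 or 2 and 2 without control replicate 2. Lsmd1, an auxiliary subunit of the NatC acetyltransferase, was at 16.1 ± 4.17 CPM in the controls (SD, n = 3) and at 25.7 ± 2.17 CPM in the tumors labelled WDR11OE (SD, n = 4), a log2 fold change of 0.67 (edgeR adjusted p = 0.0218), and 0.77 without the GC trend (adjusted p = 0.0198). Dopey2, a partner of MON2, fell from 56.6 ± 15.8 to 33.4 ± 6.60 CPM, a log2 fold change of -0.76 (adjusted p = 0.0280), and did not pass without the GC trend (-0.62, adjusted p = 0.0667). Sys1, whose protein anchors ARFRP1 at the Golgi, did not pass, with a log2 fold change of -0.07 (adjusted p = 0.647). With the GC trend removed, 2 of these 16 genes were higher and 5 were lower, with a median log2 fold change of -0.22.

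Of the 5 genes of GARP and EARP, related tethers for vesicles reaching the TGN and recycling endosomes, 2 were higher and 2 were lower. The higher count stayed at 2 without any 1 tumor, but the lower count was 0 without control replicate 2 or 3 or WDR11OE replicate 1, 2 or 3, and 1 without control replicate 1. Ccdc132, the subunit that distinguishes EARP from GARP, was at 46.9 ± 0.911 CPM in the controls (SD, n = 3) and higher, at 76.0 ± 1.27 CPM, in the tumors labelled WDR11OE (SD, n = 4), with a log2 fold change of 0.70 (edgeR adjusted p = 0.000858), and 0.33 with the GC trend removed (adjusted p = 0.0116). Vps51, shared by both complexes, fell from 27.6 ± 2.38 to 22.4 ± 0.954 CPM, a log2 fold change of -0.30 (adjusted p = 0.0351), and did not pass without the GC trend (-0.11, adjusted p = 0.463). Once the GC trend was removed, 1 of these 5 genes was higher and 1 was lower. In the COG complex, a tether of vesicles within the Golgi, 5 genes were higher and 1 was lower of 8, and with the GC trend removed 3 were higher and 0 lower. DESeq2 gave 3 higher. The higher count was 1 without WDR11OE replicate 1 or 2, 2 without control replicate 2 or 3 and 3 without control replicate 1, and the lower count was 0 without any 1 tumor except WDR11OE replicate 4. Cog5 had a log2 fold change of 0.77 (adjusted p = 0.00127), and 0.56 without the GC trend (adjusted p = 0.00613). Cog1 had one of -0.27 (adjusted p = 0.0315), and did not pass without the GC trend (-0.14, adjusted p = 0.247).

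Retromer and the SNX-BAR proteins form carriers at endosomes that return cargo to the TGN. Of their 9 genes, 7 were higher and 2 were lower, with a median log2 fold change of 0.35. Without WDR11OE replicate 1 or 2, 3 were higher. Vps35, the core subunit of retromer, was at 107 ± 3.30 CPM in the controls (SD, n = 3) and higher, at 184 ± 7.99 CPM, in the tumors labelled WDR11OE (SD, n = 4), with a log2 fold change of 0.77 (edgeR adjusted p = 0.000917), and 0.40 with the GC trend removed (adjusted p = 0.0184). Snx3, a sorting nexin that works with retromer, was lower, with a log2 fold change of -0.82 (adjusted p = 0.00566), and -0.73 without the GC trend (adjusted p = 0.0148). Once the GC trend was removed, 2 of these 9 genes were higher and 2 were lower. The median GC content of this list was 43.7%.

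In the WASH complex, which builds actin on endosomes and is linked to TBC1D23 through FAM21, 3 genes were higher and 2 were lower of 8, and 1 was lower without WDR11OE replicate 1. The subunit gene A230046K03Rik was at 106 ± 9.46 CPM in the controls (SD, n = 3) and higher, at 171 ± 8.02 CPM, in the tumors labelled WDR11OE (SD, n = 4), with a log2 fold change of 0.69 (edgeR adjusted p = 0.00135), and did not pass without the GC trend (0.28, adjusted p = 0.0619). Capzb, which encodes a subunit of the actin capping protein, fell from 86.2 ± 6.04 to 56.4 ± 5.21 CPM (log2 fold change -0.61, adjusted p = 0.00276), and had -0.55 without the GC trend (adjusted p = 0.00918). Fam21 itself did not pass, with a log2 fold change of 0.24 (adjusted p = 0.0854). After removal of the GC trend, 0 genes of this list were higher and 2 were lower.

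The adaptors that sort cargo into carriers were lower where they passed. Of 11 genes of AP-1, the GGA proteins and clathrin adaptors, 0 were higher and 6 were lower by edgeR, with 0 higher and 7 lower at an unadjusted p under 0.05. Their median log2 fold change was -0.33 and their median GC content 53.9%, and with the GC trend removed 0 were higher and 5 were lower. Ap1s3, a small AP-1 subunit, had the largest decrease and lay at 5.15 ± 0.437 CPM in the controls (SD, n = 3) and at 2.64 ± 0.649 CPM in the tumors labelled WDR11OE (SD, n = 4), with a log2 fold change of -0.97 (adjusted p = 0.0157). It passed 2-fold with DESeq2 (-1.03), limma-voom (-1.01) and the GC trend removed (-1.41), among other alternatives, and it lost its call without control replicate 3 (adjusted p = 0.0514). Ap1s2, another small subunit, had the highest log2 fold change of the list at 0.53 and did not pass (adjusted p = 0.166).

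A list of 11 genes covered SNAREs of the TGN and endosomes, the fusion proteins that act after tethering, and their regulation. Of these, 3 were higher and 0 were lower, with 1 lower in DESeq2 and at an unadjusted p under 0.05. Without WDR11OE replicate 4, 1 was lower. Bet1l was at 11.1 ± 0.473 CPM in the controls (SD, n = 3) and higher, at 16.2 ± 0.683 CPM, in the tumors labelled WDR11OE (SD, n = 4), with a log2 fold change of 0.55 (edgeR adjusted p = 0.00578), and 0.67 without the GC trend (adjusted p = 0.00502). Gosr1 was at -0.22 and did not pass (adjusted p = 0.0899), but did without the GC trend (-0.36, adjusted p = 0.0148). After removal of the GC trend, 2 of these 11 genes were higher and 1 was lower. Of 9 cargo genes of the TGN, 2 were higher and 2 were lower, and without the GC trend 0 were higher and 3 lower. Without WDR11OE replicate 1 or 2, 1 was higher. M6pr, a mannose 6-phosphate receptor, rose from 70.0 ± 6.75 to 92.9 ± 8.02 CPM (log2 fold change 0.41, adjusted p = 0.0166), and did not pass without the GC trend (0.24, adjusted p = 0.181). Furin, a protease that cycles through the TGN, fell from 61.1 ± 5.70 to 33.6 ± 3.93 CPM (log2 fold change -0.87, adjusted p = 0.00167), and had -0.69 without the GC trend (adjusted p = 0.00568).

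The list drawn up for golgins of the cis and medial Golgi also holds other Golgi genes, not all confined there. It gave 3 genes higher and 5 lower of 12, with a median log2 fold change of -0.01. Without the GC trend, 0 were higher and 4 lower. The higher count was 0 without WDR11OE replicate 1 or 2 and 1 without control replicate 1 or 2, and the lower count was 2 or 3 without any 1 tumor. Blzf1, which encodes golgin-45, was at 25.6 ± 2.59 CPM in the controls (SD, n = 3) and higher, at 33.7 ± 1.76 CPM, in the tumors labelled WDR11OE (SD, n = 4), with a log2 fold change of 0.39 (edgeR adjusted p = 0.0156), and did not pass without the GC trend (0.07, adjusted p = 0.680). Cux1 fell from 78.3 ± 6.06 to 49.0 ± 5.48 CPM (log2 fold change -0.68, adjusted p = 0.00298, and -0.45 without the GC trend, adjusted p = 0.0184). This gene also encodes a transcription factor that gene counts cannot separate from its Golgi isoform. Of the 4 golgins of the TGN, 2 were higher and 0 were lower, beside 18.1% and 15.8% of all genes. With the GC trend removed, Golga1 alone of these golgins was called. The difference between the list of 12 genes and these 4 golgins was not tested.

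**Figure D5:**
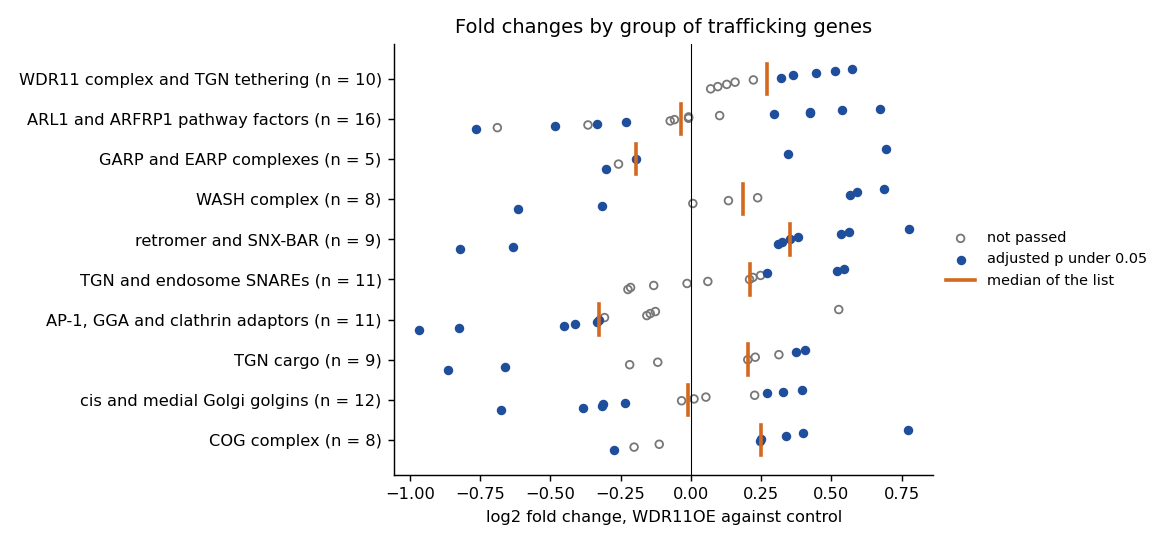
Log2 fold changes, tumors labelled WDR11OE against controls, of the 10 genes and of the 9 lists of related trafficking genes, with n the number of genes tested. Points are genes, filled where the edgeR adjusted p was under 0.05, and a vertical bar marks each list's median. The 10 genes lie above 0 with a median of 0.27, the retromer list has a median of 0.35 and the AP-1, GGA and clathrin adaptor list one of -0.33.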

How the data were processed

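RNA of 7 mouse G3 MB tumors was sequenced by the authors, 4 labelled WDR11OE and 3 controls. The sample labels name the TruSeq RNA Library Preparation Kit v2, which does not mark strand, whereas the study's methods describe stranded sequencing. The authors aligned the reads to NCBIM37.67 (StrongArm pipeline) and used HT-seq with GENCODE gene models for counting, and the deposited values are raw counts with no normalization. The submitters' processing notes name CASAVA 1.7, STAR, BWA, HTSeq and mm9. The strand setting of the counting is not given in the sources used here. Total counts per tumor were 33417175 to 41397427 in the controls and 32116095 to 87141305 in WDR11OE, and intervals of shares cover counting error only.

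All analyses started from those counts, in R 4.3.3. After filterByExpr with its defaults (edgeR 4.0.16) and TMM scaling, the quasi-likelihood test was run two-sided with the condition as the only term and Benjamini-Hochberg adjustment over 17389 genes. CPM are TMM-scaled, and log2 CPM have a prior count of 2. Coordinates, exon length and GC content came from GENCODE vM1 on NCBIM37, which matched 33691 rows (97.4%). The GC trend was removed with an offset per library, fitted by loess with a span of 0.3. Rows with no match, hWDR11 among them, could not enter that fit or the one for length. Alternatives were DESeq2 1.42.0, limma 3.58.1 with voom, which the study used, other scalings, filters and thresholds, and leaving out each tumor. The scripts were tested on simulated data. WDR11OE replicates 1 and 2 summed, TMM without the 100 most abundant genes, and the alternatives for the human row were added after seeing the data.

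The members and the lists were chosen with earlier results of these data known. Beside the members, the text names the genes with the highest and the lowest log2 fold change of each related list, any gene of them past 2-fold, the 5 genes most like Wdr11 and genes that share exon bases with a member. Sys1 and Fam21 were added for their role, after their values were seen. Some genes stand under older row names, Vps51 as 1110014N23Rik and Fam21 as D6Wsu116e. Replicate numbers follow the order of the samples and only name them.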

Additional observations from a re-analysis of the deposited data

Results flagged for a closer look

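Of 29 genes or rows examined for a tumor far from the rest of the 4 tumors labelled WDR11OE, 1 stood out, and chance alone would mark about 1 in 20. Ap1s2, a small AP-1 subunit, was at 25.9 CPM in replicate 4 of WDR11OE and at 15.5 to 16.4 CPM in the other tumors of the group. The gap to the nearest tumor was 0.895 of the group's range, above Dixon's critical value of 0.829. Ap1s2 did not pass the test between the groups. Among the 10 genes of the WDR11 complex and of trans-Golgi tethering, no tumor stood apart in this way.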

How the results depend on the processing

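With the GC trend removed, the members called higher went from 5 to 1 and the related genes called higher from 30 to 10, and the log2 fold changes of Wdr11 (-0.021), 5730455P16Rik (-0.042), Gcc2 (-0.040) and Ap1s2 (-0.046) turned negative. Wdr11 passed with upper quartile scaling (0.19) and with the length trend removed (0.32), where the related genes called lower went from 24 to 14. Unfiltered, 16 related genes were higher. With WDR11OE replicates 1 and 2 summed, 13 were higher and 13 lower. An adjusted p under 0.01 left 2 members and 14 related genes higher and 11 lower, and a 2-fold threshold left 0 of each. How many of all genes passed 0.01 was not counted. Leaving out 1 tumor at a time gave 3 to 5 members higher (3 without control replicate 2 or 3), 13 to 30 related genes higher (13 without WDR11OE replicate 1 or 2), 13 to 22 related genes lower (15 without control replicate 1 or 3, 13 and 14 without WDR11OE replicate 1 and 2) and a Wdr11 log2 fold change of 0.10 to 0.16. Over all genes, 5894 of 17389 were called in either direction in the main test. Without control replicate 2 or 3, 4213 of 17696 and 4704 of 17839 were called. Without WDR11OE replicate 1 or 2, 3571 of 17114 and 3853 of 17179 were called. In every alternative, 0 members were lower. The human row, 0.05 in the main test, was at -0.44 with limma-voom, -0.0048 without a filter, -0.18 with the replicates summed and -0.37 to 0.37 when 1 tumor was left out, and negative there without control replicate 1 (-0.075) or 2 (-0.028) and without WDR11OE replicate 1 (-0.37) or 3 (-0.054). It never passed (lowest adjusted p = 0.420). The causes were not tested. The median log2 fold change over all genes was 0.08 in the main test, 0.12 with upper quartile scaling, 0.14 without a filter and -0.01 without WDR11OE replicate 4. No paired analysis was possible because the labels give the groups no shared replicate numbers. The human row ranged from 0.624 to 4.38 CPM among the tumors labelled WDR11OE. With this spread, its interval ran from 0.405-fold to 2.63-fold and allows no firm statement on differences within it.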
